A study of Mus musculus with 10 samples.

Results

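The genes of the voltage-gated calcium channels followed here in whole-brain RNA-Seq data were the pore-forming α1 subunit genes *Cacna1a*, *Cacna1b*, *Cacna1c*, *Cacna1d*, *Cacna1e*, *Cacna1g*, *Cacna1h* and *Cacna1i*, and the α2δ subunit genes *Cacna2d1* and *Cacna2d2*. The members were chosen by gene symbol, and all 10 were found among the 18444 genes of the table. They were compared between 5 mice heterozygous for *Arid1b* (HT) and 5 wild-type (WT) mice, all male C57BL/6N pups at postnatal day 3 with no treatment given in the labels, each giving 1 library. HT mice carry a CRISPR/Cas9 edit of *Arid1b*, in which a deletion at the fifth exon with insertion of TT truncates the protein from that allele. The line is a single edited line kept by mating heterozygous males with WT females, and the edited allele is present in every cell of the body, so that the brain as a whole rather than a cell type is the unit of comparison. *Arid1b* encodes a subunit of the BAF chromatin-remodelling complex.

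Voltage-gated calcium channels open when the membrane depolarises and let calcium into the cell. The α1 subunit forms the pore and decides the channel class. Cav1 channels (L-type; *Cacna1c*, *Cacna1d*) stand on neuronal cell bodies and dendrites and link activity to gene transcription, Cav2 channels (P/Q-, N- and R-type; *Cacna1a*, *Cacna1b*, *Cacna1e*) gate transmitter release at presynaptic terminals, and Cav3 channels (T-type; *Cacna1g*, *Cacna1h*, *Cacna1i*) open at low voltage and sustain burst firing. The α2δ subunits lie outside the membrane and raise the number of channels at the cell surface, and those encoded by *Cacna2d1* and *Cacna2d2* bind gabapentin.

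The Cav3 members differ from the Cav1 and Cav2 members in their coding sequence at the ion-selecting site. There each of the 4 repeats of the pore supplies an acidic residue. In the longest coding transcript of each gene this site was found in all 4 repeats. The Cav1 and Cav2 members had 4 glutamate codons, whereas *Cacna1g*, *Cacna1h* and *Cacna1i* had 2 glutamate and 2 aspartate codons, the aspartate codons being in the third and the fourth repeat. The fourth repeat is shown because its acidic codon separates Cav3 from the other 2 classes within a single exon. Cav1 and Cav2 are not told apart by this codon. Sequences are the coding strand from the GENCODE M21 transcripts (GRCm38), 5′ to 3′, with the codon of the acidic residue in capitals and 4 codons on each side.
*Cacna1c* (chr6:118614050-118614076, minus strand, exon 36): tgtgccaccggaGAGgcctggcaggac
*Cacna1d* (chr14:30075944-30075970, minus strand, exon 36): tgtgcaacagggGAAgcctggcaggag
*Cacna1a* (chr8:84611599-84611625, plus strand, exon 35): agcgccacaggaGAAgcgtggcacaac
*Cacna1b* (chr2:24635213-24635239, minus strand, exon 36): agtgccactgggGAGgcctggcatgag
*Cacna1e* (chr1:154425975-154426001, minus strand, exon 37): agtgccacggggGAGgcttggcaggag
*Cacna1g* (chr11:94416415-94416441, minus strand, exon 32): gtctccactggtGACaactggaatggt
*Cacna1h* (chr17:25377771-25377797, minus strand, exon 31): gtgtccactgggGACaactggaatggg
*Cacna1i* (chr15:80388485-80388511, plus strand, exon 31): gtctccacaggcGATaactggaatggg

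GAG and GAA encode glutamate, and GAC and GAT encode aspartate. The α2δ members lack a pore and carry instead a metal-binding site in their extracellular part, of which the first aspartate codon is in capitals below. In both genes the bases shown run across the junction of exons 9 and 10, and the coordinates therefore include the intron.
*Cacna2d1* (chr5:16266721-16267385, plus strand): ctcattctggtgGACgtgagtggaagt
*Cacna2d2* (chr9:107513088-107513242, plus strand): gtcatcattgtgGATgtgagtggcagc

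The values are normalised read counts, that is, estimated reads of a gene divided by a size factor of the library, and the libraries summed to between 27.2 M and 29.03 M of them (M, 1000000). *Arid1b* was lower in HT, with a normalised read count of 2101 ± 343 (SD, n = 5) against 3335 ± 203 (SD, n = 5) in WT, and no HT library (1505 to 2372) reached the lowest WT library (3108). With 5 libraries in each group an exact permutation p cannot fall under 0.00794, the value found here, while the limma adjusted p was 0.390 with all libraries and 2.47e-04 without HT 4. The library HT 4 stood apart from the others. Genes with long transcripts were low in it and genes with short transcripts high, and limma gave it a weight of 0.171, against 0.858 to 1.52 for the other libraries. The members and lists are therefore compared between HT and WT with and without HT 4. Whole-brain tissue holds many cell types, so that fewer cells expressing a gene and less RNA per cell cannot be told apart.

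To ask which calcium channel genes the brain of the pup uses, normalised read counts were divided by the length of the longest annotated transcript in kilobases (kb). Among WT mice *Cacna2d1* had the highest level of the 10 genes, 756 ± 30.5 per kb (SD, n = 5), and the Cav3 gene *Cacna1i* had the lowest, 172 ± 17.3 per kb. Between these ends the WT levels fell into 2 steps, in an order that depends on the length chosen for each gene. The longest transcript of *Cacna1c* has 13162 bases, of which its longest coding sequence takes 6666. Not divided by length, *Cacna1c* (3781 normalised reads in WT) was above *Cacna2d2* (3751). The upper step held *Cacna1g* (659 ± 41.2 per kb), *Cacna2d2* (646 ± 62.0), *Cacna1b* (639 ± 51.3), *Cacna1e* (608 ± 63.0), *Cacna1h* (545 ± 36.1) and *Cacna1a* (541 ± 24.2), and the lower step held the Cav1 genes *Cacna1d* (295 ± 19.8) and *Cacna1c* (287 ± 19.0).

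Within the upper step each gene overlapped its neighbour in the order, and the Cav1 genes overlapped each other. The exceptions to such overlap were at the edges of the steps. *Cacna2d1* was above *Cacna1g* in 5 of 5 WT libraries and in 9 of all 10 libraries. *Cacna1a* was above *Cacna1d*, and *Cacna1c* above *Cacna1i*, in 10 of 10 libraries with no overlap in WT.

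**Figure D1:**
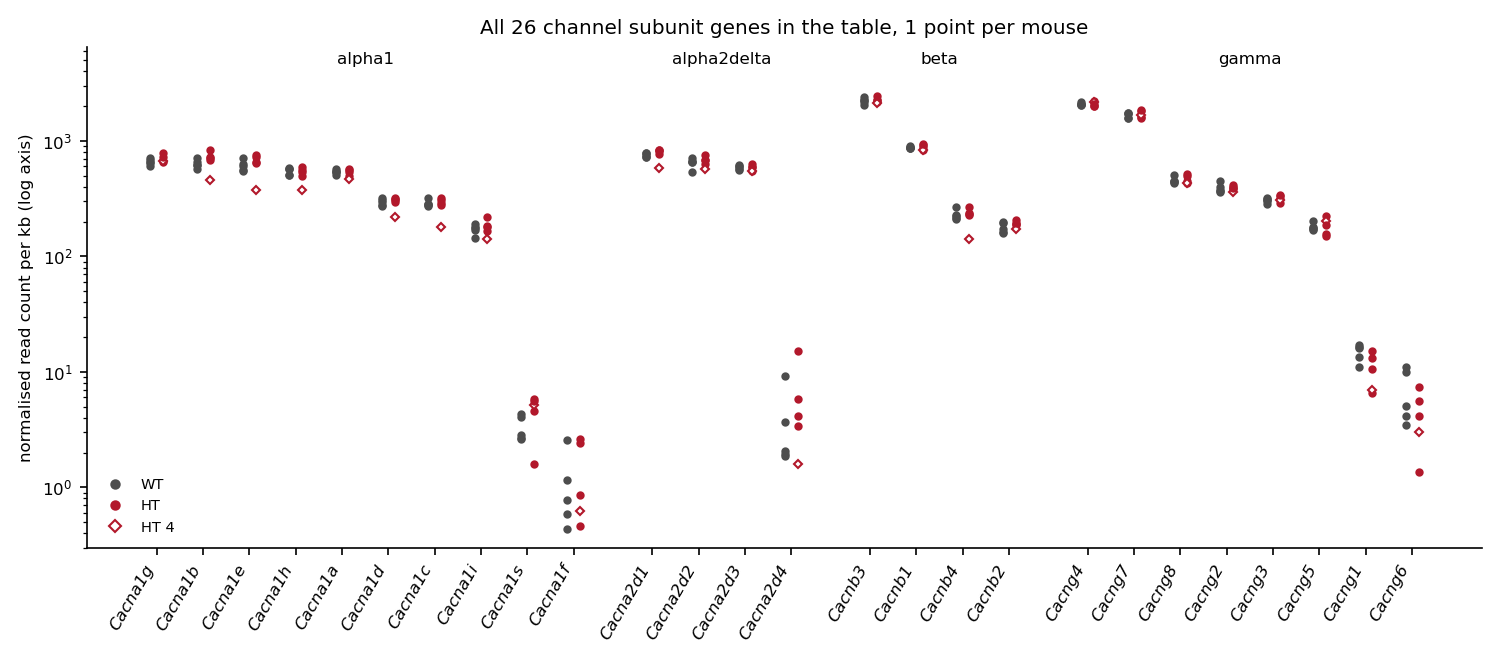
Normalised read count per kb of the longest transcript (log axis) for the 26 channel subunit genes in the table, grouped by subunit type and ordered by the WT mean, with 1 point per mouse (WT grey, HT red, HT 4 an open diamond). Cacnb3 and Cacng4 lie highest, 5 genes lie below 20 per kb, and WT and HT points overlap for every gene.

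Summed by class, the Cav2 genes made up 47.7% ± 2.08 (SD, n = 5) of the per-kb level of the 8 α1 genes in WT, the Cav3 genes 36.8% ± 2.07 and the Cav1 genes 15.6% ± 0.558. The HT shares differed from these by less than 1 SD of the HT group, with 48.2% ± 1.89, 36.9% ± 2.49 and 14.9% ± 0.715 (SD, n = 5). HT 4 stood at an end of the HT range for each class, with 45.1% Cav2, 41.1% Cav3 and 13.8% Cav1. Without it the HT means were 49.0% ± 0.898, 35.8% ± 1.01 and 15.2% ± 0.439 (SD, n = 4), all within the WT ranges of 46.0% to 51.2%, 33.2% to 38.3% and 15.02% to 16.5%. These shares are a description with no test, and they depend on the length chosen for each gene. When the median length of the annotated transcripts was used in place of the longest, the Cav3 genes made up 55.8% and the Cav2 genes 32.6% of the level in WT.

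**Figure D2:**
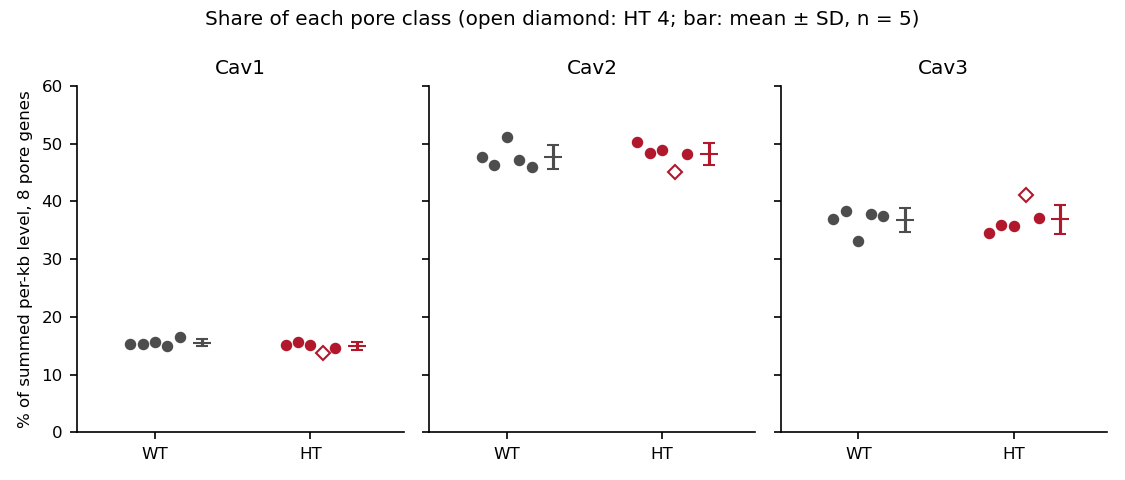
Percent of the summed per-kb level of the 8 α1 genes that each class took, with 1 point per mouse (WT grey, HT red, HT 4 an open diamond) and bars for the mean ± SD (n = 5). Cav2 lies between 45.1% and 51.2%, Cav3 between 33.2% and 41.1% and Cav1 between 13.8% and 16.5%, and WT and HT overlap in each class.

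The HT and WT groups were then compared gene by gene. No member passed the test: 0 of 10 had a limma adjusted p under 0.05, as had 0 of all 17020 genes tested (0%). At an unadjusted p under 0.05 there were 0 of the 10, against 580 of the 17020 genes (3.41%). The groups overlapped for all 10 members, while they did not overlap for 0.629% of the genes tested. On the log2 scale 6 members were higher and 4 lower in HT, with a median fold change of 0.01, against −0.01 for all genes. The 95% intervals of the fold change, written as HT in percent of WT, reached from 77.5% at the lowest (*Cacna1c*) to 129% at the highest (*Cacna1e*). Each interval holds the changes compatible with the values of 5 mice per group, and it is not a limit of detection.

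Among the Cav1 genes, *Cacna1c* encodes Cav1.2, the main L-type channel of the brain, and lies on chromosome 6 (118587240 to 119196418, minus strand). Its normalised read counts were 3584, 3633, 4213, 3741 and 3735 in WT 1 to WT 5, and 4035, 3687, 4248, 2368 and 3821 in HT 1 to HT 5. HT 4 was far below all other libraries, and the other 4 HT libraries lay within or just above the WT range. The log2 fold change was −0.08 ± 0.13 (SE, exact permutation p = 0.841) with all libraries and 0.06 ± 0.05 (exact permutation p = 0.317) without HT 4. It was again below 0 (−0.03 ± 0.05) when the trend on transcript length and GC content was removed as well.

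*Cacna1d* encodes Cav1.3, the L-type channel that opens at lower voltages, and lies on chromosome 14 (30039939 to 30491455, minus strand). WT brains had 2674, 2356, 2435, 2588 and 2778 normalised reads, and HT brains had 2678, 2745, 2805, 1908 and 2579. Again HT 4 alone fell below the WT range. A log2 fold change of −0.02 ± 0.10 was found (SE, exact permutation p = 0.897), and 0.08 ± 0.05 (exact permutation p = 0.214) without HT 4. Of its 31-base words, 4.71% occur also in transcripts of another gene, the largest share among the members, and an exon of *Chdh*, which is also in the table, overlaps it. In the other members the share was 0.159% (*Cacna1c*) to 3.09% (*Cacna1a*), and the genes with an exon overlapping *Cacna1a*, *Cacna1h* or *Cacna2d2* have no row in the table.

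Of the Cav2 genes, *Cacna1a* encodes the P/Q-type channel Cav2.1 of fast synapses and lies on chromosome 8 (84388440 to 84640246, plus strand). It was measured at 4513, 4255, 4379.9, 4298 and 3994 in WT 1 to WT 5 and at 4444, 3959, 4242, 3741 and 4532 in HT 1 to HT 5. The groups covered nearly the same range. Its log2 fold change of −0.04 ± 0.06 (SE, exact permutation p = 0.548) became 0.00 ± 0.05 without HT 4 (exact permutation p = 0.968), and its 95% interval, 89.1% to 107% of WT, was the narrowest of the 10.

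*Cacna1b* encodes the N-type channel Cav2.2 and lies on chromosome 2 (24603887 to 24763152, minus strand). Normalised read counts were 6062, 5598, 6943, 6419 and 6059.9 in WT and 7069, 6711, 8038, 4458 and 6939 in HT. HT 4 was the lowest of the 10 libraries and HT 3 the highest, and of the HT libraries other than HT 4, HT 1 and HT 3 were above every WT library while HT 2 and HT 5 were below WT 3. With all libraries the log2 fold change was 0.07 ± 0.13 (SE, exact permutation p = 0.675). Without HT 4 it was 0.21 ± 0.06, the highest among the members, with a limma unadjusted p of 0.00529 and an adjusted p of 0.447, and the exact permutation p was 0.0397.

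*Cacna1e* encodes the R-type channel Cav2.3 and lies on chromosome 1 (154390731 to 154884501, minus strand). It had the highest read count of the members, as a count and not per length, and, at 14921 bases, the longest transcript. The values were 9061, 8133, 10503.5, 9317 and 8338 in WT and 11221, 9653, 10720.4, 5578 and 9700.0 in HT. HT 4 had 54.2% of the level of the other HT libraries, the largest deficit of any member, and HT 1 and HT 3 were above every WT library. The log2 fold change of 0.01 ± 0.16 (SE, exact permutation p = 0.976) became 0.19 ± 0.07 without HT 4, where limma gave an unadjusted p of 0.0230 and an adjusted p of 0.533 (exact permutation p = 0.0794).

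**Figure D3:**
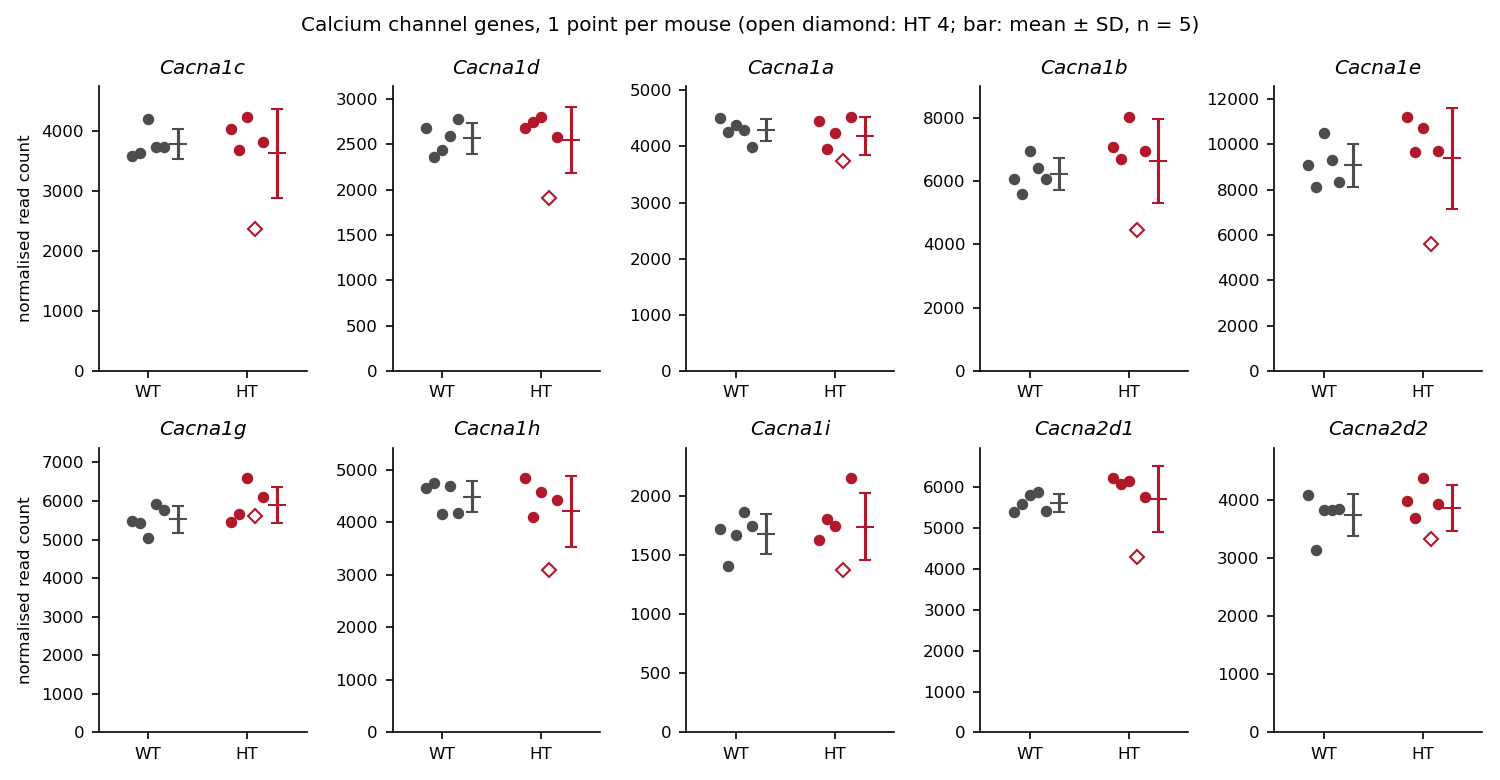
Normalised read count of each of the 10 members, with 1 point per mouse (WT grey, HT red, HT 4 an open diamond) and bars for the mean ± SD (n = 5); each axis starts at 0. HT 4 is the lowest of the 10 libraries in 8 panels, with Cacna1g and Cacna2d2 as the exceptions, and the groups overlap in all 10.

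The Cav3 gene *Cacna1g* encodes Cav3.1, the T-type channel of thalamic relay neurons, and lies on chromosome 11 (94408391 to 94474198, minus strand). Its WT values were 5488, 5421, 5032, 5929 and 5768, and its HT values were 5448, 5667, 6596, 5623 and 6117. It was the member least lowered in HT 4, at 94.6% of the other HT libraries, and 2 HT libraries were above the WT range. The log2 fold change was 0.09 ± 0.06 (SE, exact permutation p = 0.206), the highest with all libraries, and 0.11 ± 0.06 without HT 4 (exact permutation p = 0.190). Summed markers of the thalamus (*Tcf7l2*, *Prkcd*, *Lef1*, *Rora*) ranged from 6251 to 6753 in WT and from 6541 to 7165 in HT, where HT 4 was highest, with 3 of 4 genes higher in HT and 1 at an unadjusted p under 0.05, and their part in the *Cacna1g* values was not tested.

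*Cacna1h* encodes Cav3.2 and lies on chromosome 17 (25374285 to 25433783, minus strand), on the same chromosome as *Arid1b* but 20.03 Mb (megabases) away. It stood at 4659, 4754, 4152, 4689 and 4172 in WT and at 4843, 4108, 4579.9, 3095 and 4420.3 in HT. Apart from HT 4, which was the lowest, the HT libraries surrounded the WT values on both sides. The log2 fold change of −0.11 ± 0.10 (SE, exact permutation p = 0.508), the lowest among the members, became 0.00 ± 0.06 without HT 4 (exact permutation p = 0.992).

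*Cacna1i* encodes Cav3.3, the slowest of the T-type channels, and lies on chromosome 15 (80287238 to 80398279, plus strand). Its read counts, the lowest of the members, were 1716, 1403, 1667.5, 1860.5 and 1742 in WT and 1621, 1802, 1743, 1369 and 2148 in HT. HT 5 was highest, and the lowest were HT 4 and WT 2, which differed by less than the spread of either group. HT exceeded WT by 0.04 ± 0.11 on the log2 scale (SE, exact permutation p = 0.810), and 0.12 ± 0.09 without HT 4 (exact permutation p = 0.349).

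Of the α2δ subunits, *Cacna2d1* encodes α2δ-1 and lies on chromosome 5 (15934691 to 16374511, plus strand). The 5 WT libraries lay close together at 5386, 5588, 5809, 5895 and 5425, and the HT libraries had 6226, 6084, 6163, 4306 and 5758. HT 1, HT 2 and HT 3 were above every WT library, HT 5 was within the WT range and HT 4 was far below it. With all libraries the log2 fold change was 0.01 ± 0.09 (SE, exact permutation p = 0.976). Without HT 4 it was 0.11 ± 0.04, with a limma unadjusted p of 0.0151, an adjusted p of 0.481 and an exact permutation p of 0.0476.

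*Cacna2d2* encodes α2δ-2, the form abundant in cerebellar Purkinje cells, and lies on chromosome 9 (107399612 to 107529343, plus strand). Its values were 4096, 3139, 3825, 3835 and 3858 in WT and 3991, 3693, 4384, 3325 and 3942 in HT. WT 2 rather than HT 4 was the lowest library here, and the ranges were nearly the same. The log2 fold change was 0.04 ± 0.08 (SE, exact permutation p = 0.659), and 0.10 ± 0.07 without HT 4 (exact permutation p = 0.357). Summed Purkinje cell markers (*Pcp2*, *Car8*, *Calb1*, *Ppp1r17*) ranged from 2040 to 3978 in HT and from 2654 to 3678 in WT.

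HT 4 was the lowest of the 10 libraries for 8 of the 10 members, whereas it was the lowest for 27.5% of all genes tested. The members have long transcripts: 9 of 10 are among the 1701 genes with the longest transcripts (at least 6578 bases), and *Cacna2d2*, at 5807 bases, is among the 1701 genes that come next. Over the 1701 longest genes the median log2 difference between HT 4 and the mean of the other HT libraries was −0.40, and over the 1701 shortest (up to 1238 bases) it was 0.32. The members spread widely around that median. *Cacna1e* (−0.88), *Cacna1c* (−0.73) and *Cacna1b* (−0.69) were below it, while *Cacna1a* (−0.20) and *Cacna1g* (−0.08) were above it although both belong to the longest genes. *Cacna1e* (14921 bases) and *Cacna1c* (13162 bases) were the longest members and had the lowest values. Among members of like length the values differed, with 8383 bases in *Cacna1g* and 8230 in *Cacna1h* (−0.53). The summed neuronal and glutamatergic markers named below were lowest of the 10 libraries in HT 4 (159599 and 14225), and those of the oligodendrocyte lineage (16166), thalamus (7165), Purkinje cells (3978) and endothelium (3912) were highest, and their part in the low values was not tested.

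**Figure D4:**
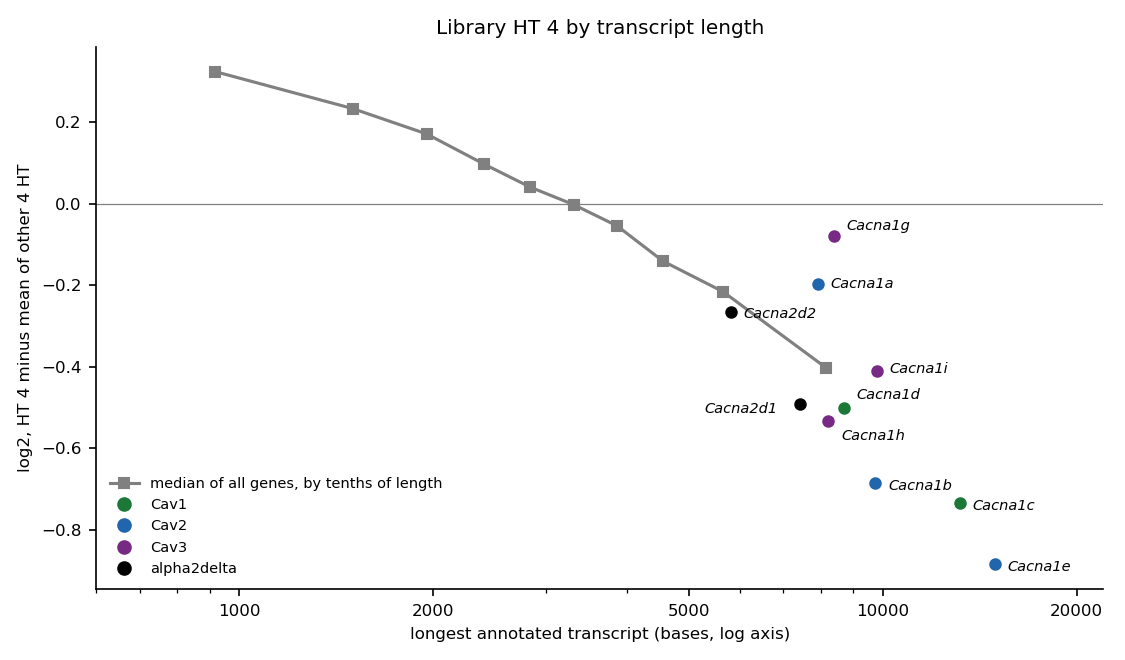
Log2 difference between HT 4 and the mean of the other 4 HT libraries against the length of the longest transcript (bases, log axis). Grey squares join the medians of all genes tested in 10 groups of length, which fall from 0.32 to −0.40, and coloured points are the 10 members, from −0.08 (Cacna1g) to −0.88 (Cacna1e).

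When HT 4 was left out, all 10 members were higher in HT, against 49.6% of the 17015 genes tested. Their median log2 fold change was 0.10, against 0.00 for all genes. *Cacna1a* (0.0014) and *Cacna1h* (0.00087) were higher by almost nothing. HT 4 was below the mean of the other HT libraries for all 10 (−0.08 to −0.88), so leaving it out had to raise each estimate. The members were measured in the same libraries and are not independent, so their shared direction was not tested. An unadjusted p under 0.05 with a higher value in HT was found for 3 of 10 members, *Cacna1b*, *Cacna1e* and *Cacna2d1*, and for 4.69% of all genes. None of the members had an adjusted p under 0.05, which 2 genes (0.0118%) had in this fit, and none separated the groups, which 2.96% of genes did. The high values were shared by a few libraries. HT 3 was the highest of the 10 libraries for 5 members, HT 1 for 3 and HT 5 for 2 (8.76%, 11.9% and 7.83% of all genes), while no WT library was the highest for any of them.

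The trend of each library on transcript length and GC content was also taken out before testing, since all members are long. Without HT 4 and with the trend removed, 7 members were higher and 3 lower in HT, and the median log2 fold change was 0.06. *Cacna1b* (0.15 ± 0.05, SE; limma adjusted p = 0.517) and *Cacna1e* (0.09 ± 0.04; adjusted p = 0.602) were again at an unadjusted p under 0.05, with a higher value in HT, as were 4.11% of all genes. *Cacna2d1* was not, at 0.06 ± 0.03 (limma adjusted p = 0.654). The *Cacna1e* estimate was 0.19 without this step, and those of *Cacna1a*, *Cacna1c* and *Cacna1h* turned below 0 (−0.04, −0.03 and −0.04).

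**Figure D5:**
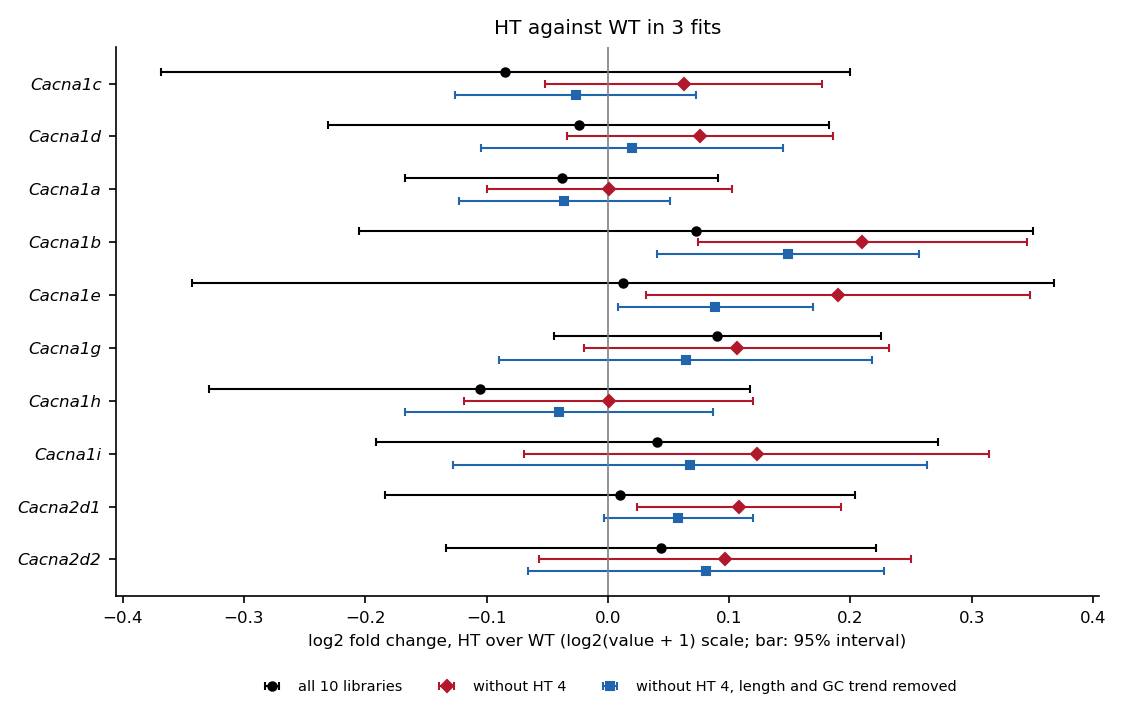
Log2 fold change of HT over WT with 95% intervals for the 10 members in 3 fits, with all libraries (black), without HT 4 (red) and without HT 4 after removal of the length and GC trend (blue). The black intervals all span 0. The red intervals span 0 except for Cacna1b, Cacna1e and Cacna2d1, and the blue intervals span 0 except for Cacna1b and Cacna1e.

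The channels assemble with further subunits, and all 16 of the other subunit genes were in the table. Of the β subunits, which bring the α1 subunit to the membrane, *Cacnb3* was the most abundant per length (2233 ± 132 per kb in WT, SD, n = 5), followed by *Cacnb1* (879 ± 15.7), *Cacnb4* (228 ± 21.8) and *Cacnb2* (178 ± 17.2). *Cacnb4* resembled the long members in HT 4, with 1172 normalised reads against 1876 to 2189 in the other HT libraries and 1742 to 2189 in WT. The third α2δ gene, *Cacna2d3*, had 591 ± 23.4 per kb in WT, between *Cacna1e* and *Cacna1h* in the order given above. *Cacna2d4*, known from the retina, had between 9.29 and 87.04 normalised reads per library.

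Among the γ genes, which include the TARP auxiliary subunits of AMPA receptors, *Cacng4* (2084 ± 61.5 per kb in WT, SD, n = 5) and *Cacng7* (1672 ± 85.9) were highest, and *Cacng8* (454 ± 27.6), *Cacng2* (391 ± 35.6), *Cacng3* (306 ± 14.4) and *Cacng5* (181 ± 13.6) were intermediate. The skeletal muscle γ gene *Cacng1* had 8.14 to 21.4 normalised reads and its relative *Cacng6* had 2.66 to 21.6. The remaining α1 genes were also near the floor of the table. *Cacna1s*, the α1 gene of skeletal muscle, had 9.89 to 36.05 normalised reads, and *Cacna1f*, that of retinal photoreceptors, had 2.67 to 15.9 and was left out of the test because its mean was under 10.

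Among the other subunits 15 genes were tested with limma and 0 passed 0.05, with or without adjustment, while 10 were higher and 5 lower in HT, and the median log2 fold change was 0.01. *Cacng1* had the smallest p, with a mean of 13.05 ± 4.73 in HT and 18.5 ± 3.19 in WT (SD, n = 5) and a log2 fold change of −0.52 ± 0.28 (SE, exact permutation p = 0.0714). Skeletal muscle markers (*Myh3*, *Myh8*, *Acta1*, *Ckm*, *Tnnt3*, *Mylpf*) were lower in HT for 6 of 6 genes, with a summed count of 160.3 to 283 in HT and 196 to 479 in WT and with *Ckm* at 0 in at least 1 library. *Cacna1s*, named above as a muscle gene, was higher in HT, at 28.4 ± 10.7 against 20.6 ± 5.16 in WT (SD, n = 5). Its log2 fold change was 0.35 ± 0.33 (SE, exact permutation p = 0.373), and 0.28 without HT 4. The part of muscle in the *Cacng1* values was not tested. Without HT 4 again 0 of 15 had an unadjusted p under 0.05, and the median was 0.03.

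The proteins that bind the channels were also examined. Of 20 partner genes (among them active-zone tethers, presynaptic SNAREs, RGK-type inhibitors, STAC adaptors and the kinase anchor *Akap5*), 19 were tested and 0 had an unadjusted p under 0.05, with a median log2 fold change of 0.03. The smallest p values were those of *Rem2* (0.12 ± 0.07, SE, exact permutation p = 0.0873), an RGK inhibitor that is induced by activity, *Stac2* (0.11 ± 0.08, exact permutation p = 0.206) and *Rrad* (0.23 ± 0.17, exact permutation p = 0.0873). Without HT 4, 4 of the 19 partners had an unadjusted p under 0.05, all higher in HT, and the median was 0.07. In that fit 8.38% of all genes had an unadjusted p under 0.05 in either direction, and 4.69% with a higher value in HT. With the trend on length and GC content removed as well there were again 4, all higher in HT (4.11% of all genes). The partners higher and lower in HT numbered 14 and 5 with all libraries, and 16 and 3 in this last fit.

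Calcium that enters through these channels acts on calmodulin-dependent kinases, calcineurin and NFAT, CREB and the genes that CREB drives. Of these 21 genes, 0 had an unadjusted p under 0.05, 10 were higher and 11 lower in HT, and the median log2 fold change was 0.00. *Nfatc2* (0.13 ± 0.08, SE, exact permutation p = 0.103), *Nfatc1* (−0.23 ± 0.16, exact permutation p = 0.206) and the activity-regulated transcription factor gene *Npas4* (0.10 ± 0.07, exact permutation p = 0.127) had the smallest p. *Camk2b*, with the highest read count, had 17881 ± 1234 normalised reads in HT and 17758 ± 274 in WT (SD, n = 5). Without HT 4 an unadjusted p under 0.05 was found for 2 of the 21, both higher in HT. Of all genes, 8.38% had one in either direction and 4.69% with a higher value in HT. With the trend on length and GC content removed as well there were 4, against 1343 of 17015 genes in either direction. Of these 4, 3 were higher in HT (4.11% of all genes).

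Intracellular stores, pumps, exchangers and buffers handle the calcium once it is inside. Of these 20 genes 1 had an unadjusted p under 0.05 (3.41% of all genes) and 0 an adjusted one. In HT 11 were higher and 9 lower, and the median log2 fold change was 0.01. That gene was *Atp2a1*, the calcium pump of fast skeletal muscle, with 8.70 ± 9.34 normalised reads in HT and 26.01 ± 15.05 in WT (SD, n = 5, log2 fold change −1.63 ± 0.58, exact permutation p = 0.0556). Its level was as low as that of *Cacng1*, beside the lower muscle markers and the higher *Cacna1s* given above. *Pvalb* (−0.52 ± 0.29, exact permutation p = 0.143), a calcium buffer of fast-spiking interneurons and of muscle, and *Itpr1* (−0.19 ± 0.11, exact permutation p = 0.222), a release channel of the endoplasmic reticulum, were next. Leaving out HT 4 moved *Pvalb* to −0.82 and *Itpr1* to −0.09 (limma adjusted p = 0.418 and 0.837). *Atp2a2*, with the highest read count, had 16319 ± 1630 in HT and 15942 ± 760 in WT. Without HT 4, 8 of these 20 passed 0.05 unadjusted (8.38% of all genes), of which 6 were higher in HT (4.69% of all genes). With the trend on length and GC content removed as well there were 7 (1343 of 17015 genes). Of these 7, 4 were higher in HT (4.11% of all genes).

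The tissue label was checked against markers fixed with the gene lists. Neuronal markers (*Rbfox3*, *Snap25*, *Syt1*, *Tubb3*, *Stmn2*, *Map2*) summed to 159599 to 179916 in HT and 165531 to 172630.0 in WT, and none was at 0 in any library. The 4 glutamatergic markers (*Slc17a7*, *Slc17a6*, *Neurod6*, *Neurod2*) summed to 14225 to 17486 in HT and 15546 to 16846 in WT, with 3 of 4 lower in HT and 1 at an unadjusted p under 0.05. The 3 GABAergic markers (*Gad1*, *Gad2*, *Slc32a1*) were each higher in HT, although 0 of 3 had an unadjusted p under 0.05. Their sums did not overlap, at 11394 to 12277 in HT and 10619 to 11247 in WT. Among single genes 0.629% did not overlap, a share that does not apply directly to a sum, and the difference of the sums was not tested. Choroid plexus markers (*Ttr*, *Folr1*, *Kl*, *Clic6*) were lower in HT for 4 of 4 genes, 3 of them at an unadjusted p under 0.05 (3.41% of all genes). Their sums were 6490.2 to 9333 in HT and 9878 to 13516 in WT. Astrocyte, oligodendrocyte-lineage, microglial, endothelial, mural, erythroid and photoreceptor sums overlapped between groups, and of the 3 photoreceptor markers in the table *Crx* was at 0 in at least 1 library. Within these lists 4 of 4 microglial genes were lower and 5 of 5 erythroid genes higher in HT, with 0 at an unadjusted p under 0.05. Without HT 4, 3 of 4 endothelial, 1 microglial and 1 astrocyte gene had an unadjusted p under 0.05 (8.38% of all genes). The part of these markers in the calcium channel values was not tested.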

How the data were processed

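Poly-A-selected RNA from the whole brain of 10 mice was sequenced, 1 library per mouse, and the labels gave the group and the replicate number. According to the study's methods, the authors quantified reads with Salmon 1.1.0 on GRCm38 with a GC-bias correction, imported gene estimates with tximport and divided them by size factors from DESeq2 1.30.1, and the deposited table holds the resulting signal, a normalised read count per gene and library (27.2 M to 29.03 M per library; M, 1000000). Salmon splits reads between transcripts, the values were not whole reads and tests for counts were not run. Reads shared between similar genes are thus split by estimate. The counting error of single values is unknown, and precision was taken from the spread between mice.

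Symbols, positions and transcript lengths came from GENCODE M21 (GRCm38), in which 18431 of 18444 identifiers matched. The annotation release the authors used is not given in the sources used here. Values were analysed as log2(value + 1), which understates changes of low genes, in R 4.3.3 with limma 3.58.1 (trend, robust empirical Bayes, two-sided), for 17020 genes with a mean of at least 10, with Benjamini-Hochberg adjustment over all of them and a threshold of 0.05; 1424 genes were left out. Exact permutation tests for single genes were two-sided over 252 assignments of the libraries (126 without HT 4; smallest p 0.00794 in both). The workflow was tested on simulated data. The trend on length and GC content was a lowess curve (span 0.3) per library. Sequences were read from the GENCODE M21 transcripts; an acidic codon of the pore was found by the pattern F, 3 residues, T or S, 1 residue, E or D, then G, D, A or N, then W in the translated transcript, and the metal site by D, 1 residue, S, G, S.

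The members and gene lists were chosen with earlier results of these data known. Named from the lists of partners, signalling and calcium handling were the 3 genes with the smallest unadjusted p and the most abundant gene, and all other channel subunits. The values of 1 gene named by this rule are left out here. Alternatives were other pseudocounts, filters, scaling, sample weights, removal of the length and GC trend, each library left out, a replicate block and other transcript lengths.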

Additional observations from a re-analysis of the deposited data

Results flagged for a closer look

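Each group of 5 libraries was checked for a library far from the other 4 (its gap to the nearest library as a share of the range of the group), in 56 groups covering the 25 tested subunit genes and the 3 class shares. A total of 10 such libraries was found, where chance gives about 2.8 (1 in 20). The groups are not independent, since every gene was read in the same libraries and the class shares come from these genes. The difference from 2.8 was not tested. HT 4 was the far library 3 times, all among members. It was low for *Cacna1d* (1908 against 2579 to 2805 in the other HT libraries; share of the range 0.748), *Cacna1e* (5578 against 9653 to 11221; 0.722) and *Cacna2d1* (4306 against 5758 to 6226; 0.756). WT 3 was high for *Cacna1c* (4213 against 3584 to 3741 in the other WT libraries; 0.750) and *Cacng8* (954 against 825 to 848; 0.818) and low for the Cav3 share of the α1 level (33.2% against 37.0% to 38.3%; 0.744). WT 2 was low for *Cacna2d2* (3139 against 3825 to 4096; 0.717) and high for *Cacnb4* (2189 against 1742 to 1864; 0.727). WT 4 was high for *Cacna2d4* (53.6 against 10.8 to 21.2; 0.756), and HT 2 was low for *Cacna1s* (9.89 against 28.6 to 36.05; 0.716), both at levels near the floor of the table.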

How the results depend on the processing

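No member and no gene of the related lists passed the adjusted threshold under any of the 19 alternatives to the limma fit, and the lowest adjusted p of a member was 0.447. Over all genes, 2 were called with sample weights, 1 with the length and GC trend removed, 2 without HT 4 and 2 with both steps, against 0 otherwise. Members at an unadjusted p under 0.05 numbered 1 with sample weights (*Cacna1b*), 3 without HT 4 (leave-one-out range 0 to 3), and 2 without HT 4 after removal of the trend. Of 190 fold changes of members under the alternatives, 25 changed sign. With 1 library left out the log2 fold change ranged from −0.068 to 0.0014 for *Cacna1a*, −0.0027 to 0.21 for *Cacna1b*, −0.15 to 0.062 for *Cacna1c*, −0.063 to 0.076 for *Cacna1d*, −0.062 to 0.19 for *Cacna1e*, −0.16 to 0.00087 for *Cacna1h*, −0.040 to 0.12 for *Cacna1i*, −0.025 to 0.11 for *Cacna2d1* and −0.019 to 0.097 for *Cacna2d2*, and for all genes called from 0 to 2. *Cacna1g* stayed above 0 under every alternative run, with a leave-one-out range of 0.049 (without HT 3) to 0.12 (without HT 1) and 0.057 without WT 3. *Cacna1c* was at 0.032 with sample weights, and *Cacna1d* at 0.066 with sample weights, 0.0067 with the trend removed and 0.020 with HT 4 also left out. The cause of these sign changes was not tested. The class shares in WT depended on the length used: 11.6% Cav1, 32.6% Cav2 and 55.8% Cav3 with the median transcript length, and 16.9%, 52.0% and 31.1% without division by length. With the replicate number as a block, 0 genes were called (558 at an unadjusted p under 0.05) and no member; same-numbered libraries had deviations correlated at −0.10 (number 4) to 0.09 and were closest to their own number in 4 of 5 pairs, a hint from the data and not from the design, since the labels name no shared litter or day.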
